A study of Homo sapiens with 4 samples.

Results

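The response of human microglia-like cells to 6 hours of bacterial lipopolysaccharide (LPS) is described here, by comparing 3 LPS-treated cultures with 3 vehicle cultures (Ctrl) across all genes. The cells were chosen from both droplet libraries by their hashtag, an antibody-borne barcode that names the culture. A cell was kept when its top hashtag had at least 30 UMIs (unique molecular identifiers, counted molecules) and at least 3 times the next hashtag, and when it showed at least 1000 genes with no more than 10% of its UMIs from mitochondrial genes. Of 28943 barcodes, 24662 carried such a hashtag and 16937 passed all filters, of which 7684 belonged to this comparison: 3564 Ctrl cells and 4120 LPS cells.

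The cells were derived from the human embryonic stem cell line H9, through monocyte-like cells harvested on day 25 and kept for 7 days in a medium with TGF-β, IL-34 and cholesterol. Then Ctrl cultures received DMSO for 22 h with PBS for the last 6 h. LPS cultures received the same DMSO, and 200 ng/mL LPS in place of PBS, so that both groups carried the DMSO. The study's other 6 cultures had semagacestat at 2 µM, an inhibitor of the protease γ-secretase, in place of DMSO, with PBS (Sema) or LPS (SemaLPS). All cells were detached with an enzyme in the presence of 5 µM actinomycin D, which blocks transcription, and were pooled before capture. The cultures are of 1 line, the labels do not say what a culture's number stands for, and p-values measure only the spread between these cultures.

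LPS is a glycolipid of the outer membrane of Gram-negative bacteria. CD14 hands it to the receptor TLR4 and its partner MD-2, encoded by LY96. The adaptors MyD88 and TRIF then lead to NF-κB and MAP kinases, which switch on cytokine and chemokine genes, and to the kinase TBK1 and the factor IRF3, which switch on interferon-β. Microglia, the resident macrophages of the brain, depend on TGF-β and on CSF1R ligands such as IL-34 to hold their resting gene programme, and lose part of it when they respond to LPS.

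The 6 cultures held between 1144 (Ctrl-3) and 1459 (LPS-1) cells, and between 34780161 (Ctrl-3) and 48559694 (LPS-1) UMIs. The median cell had 28406.5 to 28792 UMIs in Ctrl and 31104 to 31750 UMIs in LPS cultures, with 5027.5 to 5099.5 and 4956 to 5010 genes. Between 31.33 and 38.94% of tagged Ctrl barcodes and between 20.93 and 31.11% of tagged LPS barcodes were left out for mitochondrial UMIs. The hashtags of LPS-3 and Ctrl-3 were weak, with medians of 311 and 359.5 UMIs per cell against 1040 to 1643 in the other 4 cultures. The libraries shared 91 barcodes, 24 of them among kept cells. The 11 markers of microglia and macrophages summed to 7860 to 8210 CPM (UMIs per 1000000 of the culture, here without further scaling) in Ctrl and 7540 to 7880 CPM in LPS cultures. Of the stricter markers of microglia, SALL1 was all but missing, with 1 UMI in the Ctrl and 2 UMIs in the LPS cultures, and TMEM119 had 217 and 190 UMIs. The 7 stricter markers, led by GPR34, summed to 555 to 658 CPM in Ctrl and 136 to 172 CPM in LPS cultures. Markers of granulocyte precursors, mast cells, erythroid cells, megakaryocytes and pluripotent cells summed to less than 1 CPM in each of the 6 cultures; ELANE, MPO and PRTN3 were at 0. Lymphocyte markers summed to 21.3 to 25.1 CPM, nearly all of it NKG7. Endothelial markers summed to 1.15 to 1.67 CPM in Ctrl and 0.309 to 0.49 CPM in LPS cultures, and neural markers to 8.25 to 12.7 and 5.35 to 7.0 CPM. Fibroblast markers summed to 3.05 to 4.95 CPM in 5 of the cultures and to 25.1 CPM in Ctrl-2.

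LPS moved most of the measurable transcriptome, and the changes were lopsided at the top. Of 15383 genes tested, 5051 (32.8%) rose and 4958 (32.2%) fell, 65.1% in all, with edgeR's quasi-likelihood test at an adjusted p under 0.05. At least 2-fold changes were made by 946 genes that rose (6.15%) and 1277 that fell (8.3%). Above 4-fold the order turned, with 401 genes that rose and 283 that fell. At least 8-fold rises were seen in 199 genes against 45 falls, and at least 16-fold rises in 84 genes against 5 falls. Of the 2223 genes changed at least 2-fold, 2202 moved the same way in all 3 pairs of same-numbered cultures, and for 2163 of them the 3 LPS cultures lay apart from the 3 Ctrl cultures. Over all tested genes, groups lay apart in 63.2%. The 2223 genes were chosen by a test on these same cultures, so neither count is separate support for their change.

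**Figure D1:**
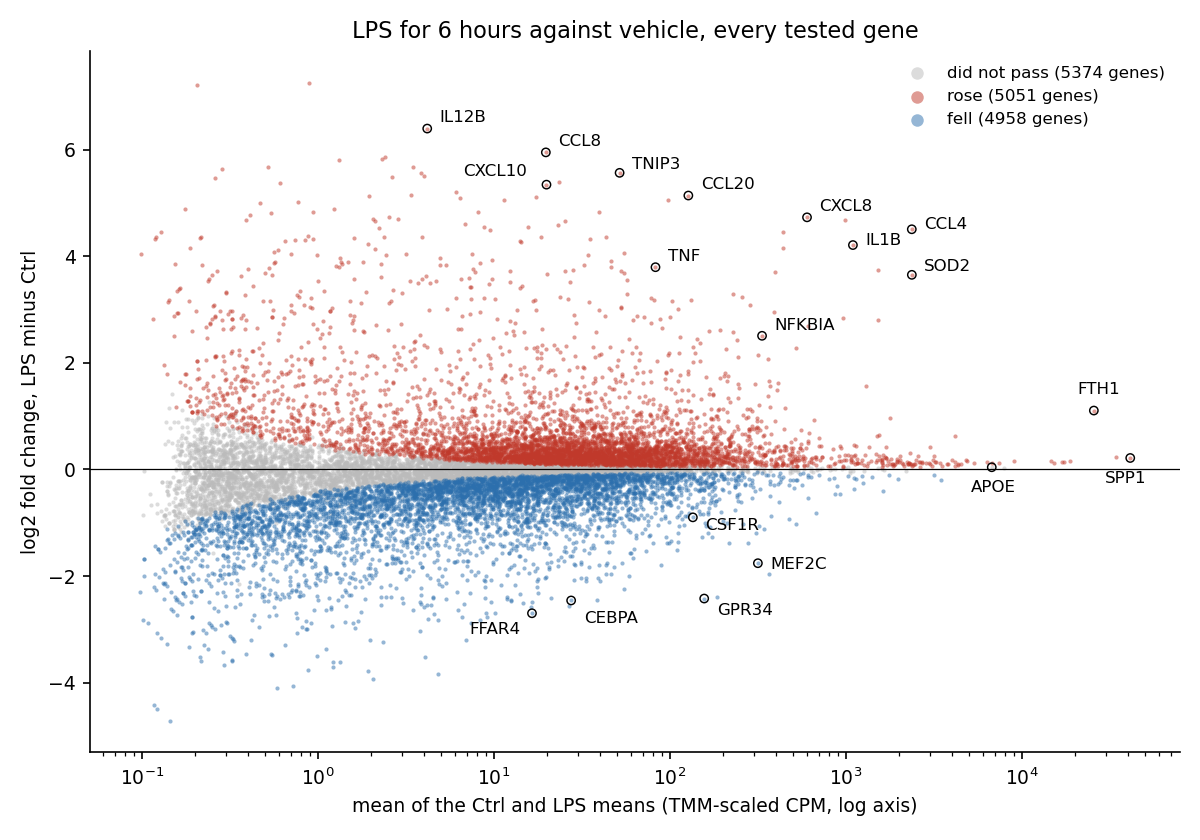
Each point is 1 of the 15383 tested genes, with its mean expression (TMM-scaled CPM, log axis) on the x axis and its log2 fold change, LPS minus Ctrl, on the y axis. Red and blue points rose and fell by edgeR's test; rises reach further from 0 than falls among well-expressed genes, from CCL8 at 5.95 down to FFAR4 at −2.70 among genes of at least 20 CPM.

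The genes changed at least 2-fold were chosen on these same cultures, so the direction of their summed UMIs was set by that choice. Only the size of the sums is described. Genes that rose at least 2-fold held 3.23, 3.47 and 3.55% of the UMIs of Ctrl-1, Ctrl-2 and Ctrl-3, and 10.0, 9.68 and 9.78% of those of LPS-1, LPS-2 and LPS-3. In UMIs per cell this was 982, 1030 and 1080 against 3330, 3170 and 3240. FTH1 alone, the ferritin heavy chain, held 1.56, 1.75 and 1.92% of UMIs in Ctrl and 3.21, 3.18 and 3.39% in LPS cultures. The genes that fell at least 2-fold went from 618, 614 and 605 UMIs per cell to 217, 234 and 215. Values below are CPM after TMM scaling, a step that sets the bulk of genes level between cultures, with 1 count per molecule whatever the length of the transcript. Triplets stand for cultures 1, 2 and 3 in that order, and log2 fold changes (LPS minus Ctrl) are given ± the standard error of edgeR's fit. A gene given with a log2 fold change passed the test unless it is said not to have passed. Counts of list members that rose or fell are to be read beside the 32.8 and 32.2% of all tested genes that did so. Without this scaling, at library size alone, the median of all genes shifted by −0.20 on the log2 scale and the split became 2902 genes that rose and 7807 that fell (27.1% of calls were rises, against 50.5%). With limma on the mean of each cell's CPM, which has no such scaling either, the shift was −0.14 and 26.8% of calls were rises. Changes of this size are therefore given relative to the bulk of genes, and families whose direction turns are named where they appear.

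Among genes with at least 20 CPM in LPS or Ctrl, the 20 largest rises ran from CCL8 to ZP3 and the 20 largest falls from FFAR4 to ENHO. CCL8, a chemokine for monocytes (chromosome 17 at 34319036 to 34321402 on GRCh38), stood at 0.638, 0.790 and 0.437 CPM in Ctrl and 42.6, 48.3 and 25.4 CPM in LPS, a log2 fold change of 5.95 ± 0.12 with adjusted p = 5.64e-16. TNIP3, which restrains NF-κB signalling together with A20, stood at 2.88, 2.14 and 1.36 CPM in Ctrl and 111, 98.9 and 93.6 CPM in LPS (5.57 ± 0.16). CXCL10, a chemokine for T cells, stood at 1.15, 1.04 and 0.655 CPM in Ctrl and 48, 34.1 and 34.1 CPM in LPS (5.35 ± 0.16). These genes were picked among those whose groups did not overlap. The other 17 were LINC02605, CCL20, PTX3, ADORA2A, TNFAIP6, LAMP3, CXCL8, CCL4L2, TRAF1, SOCS3, TNFRSF9, CCL4, G0S2, CH25H, BIRC3, IL1A and ZP3. Their fitted log2 fold changes lay between 4.29 (ZP3) and 5.40 (LINC02605). Vehicle cells shared the droplet libraries with LPS cells. With the top hashtag at least 10 times the next the log2 fold change became 6.42 for TNIP3, 6.21 for LINC02605, 5.78 for PTX3, 5.09 for CH25H and 5.05 for G0S2. That ratio also cut Ctrl-3 from 1144 to 545 cells and LPS-3 from 1293 to 472 cells. The other Ctrl and LPS cultures kept 1074 to 1332 cells each, and what moved the values was not tested. In library 1 alone the log2 fold change of CCL8 was 7.14 and in library 2 alone 5.16. The largest fall was in FFAR4, a receptor for long-chain fatty acids, from 28.5, 29.7 and 27.2 CPM to 4.15, 5.15 and 3.84 CPM (−2.70 ± 0.07). ZNF703, a transcriptional repressor, CYSLTR1, a receptor for cysteinyl leukotrienes, and P2RY12, the ADP receptor that steers microglial processes, followed at −2.59, −2.57 and −2.51. The next falls were in SUSD3, LRRC39, CEBPA, SLC7A8, SH3PXD2A, GPR34, SPRY2, RGCC, TRDN, HHEX, DDIT4L, IGF1, PRAM1, GAPLINC, ADORA3 and ENHO, from −2.49 to −2.09, picked in the same way.

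The receptors of LPS itself moved unevenly. Of 30 tested genes of the TLR4 complex and its signalling, 18 rose and 5 fell, with a median log2 fold change of 0.26 against −0.02 over all genes. The median fell to 0.06 at library size alone, with 13 rises and 12 falls. TLR4 changed little, from 72.4, 76.5 and 71.5 CPM to 90.6, 91.2 and 89.0 CPM (0.30 ± 0.03). CD14, which loads LPS onto TLR4, stood at 86.3, 73.8 and 87.7 CPM in Ctrl and 185, 154 and 194 CPM in LPS (1.10 ± 0.04), and LY96 at 131, 129 and 135 CPM in Ctrl and 93.1, 96.9 and 106 CPM in LPS (−0.42 ± 0.03). These partners of the receptor went in opposite directions, with no overlap between groups. TLR2, the receptor for bacterial lipopeptides, rose from 57.2, 60.7 and 56.4 CPM to 242, 238 and 233 CPM (2.03 ± 0.04), and TLR8, an endosomal sensor of RNA, from 6.28, 6.72 and 7.23 CPM to 53.9, 48 and 48.4 CPM (2.89 ± 0.07). Downstream, the kinases IRAK2 (3.00 ± 0.10) and MAP3K8 (2.16 ± 0.07) and the adaptor TRAF3 (1.34 ± 0.04) rose, while MAPKAPK2, the kinase under p38, fell (−0.40 ± 0.04).

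NF-κB subunits and their inhibitors rose nearly as a block. In the cytosol NF-κB is held by inhibitors of the IκB family, whose genes are themselves among its targets. Of 21 tested genes, 19 rose, 14 of them at least 2-fold, and 1 fell, with a median of 2.11. NFKBIA, which encodes IκBα (chromosome 14 at 35401511 to 35404749), stood at 105, 106 and 88.5 CPM in Ctrl and 594, 569 and 538 CPM in LPS, a log2 fold change of 2.51 ± 0.04 with adjusted p = 1.28e-16. NFKB1, the p105 precursor of p50, stood at 66.7, 70.4 and 58.4 CPM in Ctrl and 411, 365 and 391 CPM in LPS (2.58 ± 0.06). NFKB2, the p100 precursor of p52, went from 9.36, 8.81 and 7.97 CPM to 70.5, 66.5 and 72.4 CPM (3.00 ± 0.05). In all of these each LPS culture lay above each Ctrl culture, by several times the spread within a group. Many genes were named for a small adjusted p in these same cultures. That their groups lie apart, here and elsewhere, is therefore no separate support. The brakes of the pathway rose too: TNFAIP3, the ubiquitin-editing enzyme A20, by 3.16 ± 0.06, its partner TNIP1 by 2.66 ± 0.05, and the nuclear cofactor NFKBIZ by 3.04 ± 0.06. The single fall was OTULIN, which removes linear ubiquitin chains (−0.46 ± 0.04).

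Cytokine genes rose selectively. Of 36 tested cytokines and growth factors, 22 rose, 18 of them at least 2-fold, and 10 fell, with a median of 1.05. IL1B, the precursor of interleukin-1β (chromosome 2 at 112829751 to 112836903), was the most abundant of them with LPS, at 123, 119 and 94.8 CPM in Ctrl and 2369, 1908 and 1956 CPM in LPS, a log2 fold change of 4.21 ± 0.08 with adjusted p = 6.06e-16. TNF stood at 13, 10.4 and 9.47 CPM in Ctrl and 187, 173 and 103 CPM in LPS (3.80 ± 0.15), with LPS-3 lowest of the treated cultures but far above Ctrl. IL1A, whose protein is active without processing, stood at 3.34, 3.23 and 3.41 CPM in Ctrl and 77.4, 68.5 and 54.1 CPM in LPS (4.32 ± 0.10). IL1RN, the natural antagonist of the interleukin-1 receptor, rose too, from 23.9, 53.8 and 67.6 CPM to 289, 228 and 335 CPM (2.59 ± 0.19), with a wide spread among the Ctrl cultures. The largest fold changes of the list were in scarce transcripts. IL6 went from 0.383, 0.331 and 0.382 CPM to 15.7, 13.4 and 8.37 CPM (5.09 ± 0.18). IL12B, the shared p40 chain of interleukins 12 and 23, went from 0.179, 0.0509 and 0.0546 CPM to 8.27, 10.5 and 5.91 CPM (6.40 ± 0.40, and 7.35 without Ctrl-1). EBI3, a partner chain of interleukins 27 and 35, rose from 7.42, 6.98 and 4.20 CPM to 119, 92.4 and 99.3 CPM (4.05 ± 0.09), and the vasoconstrictor EDN1 by 3.15 ± 0.08. The falls included the anti-inflammatory IL10, at 3.85, 3.49 and 3.74 CPM in Ctrl and 2.68, 2.69 and 2.01 CPM in LPS (−0.58 ± 0.13), and IL18, an interleukin-1 family member released by caspase-1, at 8.14, 8.30 and 7.42 CPM in Ctrl and 4.06, 5.40 and 4.40 CPM in LPS (−0.79 ± 0.10). In library 1 alone IL10 no longer passed (edgeR's adjusted p = 0.0528). HBEGF, a ligand of the EGF receptor, fell by 1.24 on the log2 scale and IGF1, a growth factor that microglia supply to neurons and oligodendrocytes, by 2.20.

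All 27 tested chemokines rose, 26 of them at least 2-fold. Their median was 3.76, also with CCL17, which had 0 UMIs in the Ctrl cultures and 24, 6 and 22 UMIs in the LPS cultures, set at a floor of 3 UMIs over the Ctrl group. CCL4, an attractant of monocytes and T cells, became one of the most abundant transcripts of the cell, at 213, 216 and 168 CPM in Ctrl and 5086, 4367 and 4146 CPM in LPS, a log2 fold change of 4.51 ± 0.08 with adjusted p = 3.78e-16. CCL3, a further attractant of monocytes, stood at 233, 227 and 176 CPM in Ctrl and 3200.4, 2823 and 2469 CPM in LPS (3.74 ± 0.08). Their near-identical copies CCL4L2 (4.69 ± 0.12) and CCL3L1 (4.16 ± 0.10) rose as well, and how reads were divided among the copies is uncertain. In UMIs per cell the 4 genes together went from 19.0, 18.5 and 14.1 to 355, 307 and 274. CXCL8, the neutrophil attractant interleukin-8 (chromosome 4 at 73740506 to 73743716), stood at 43.7, 48.1 and 38.6 CPM in Ctrl and 1286, 1077 and 1109.5 CPM in LPS (4.73 ± 0.10). CCL2, the ligand of CCR2 on monocytes, stood at 61.6, 50.8 and 53.0 CPM in Ctrl and 902, 741 and 551 CPM in LPS (3.71 ± 0.08), and its LPS-3 value was the lowest of the treated cultures. CCL20, a ligand of CCR6, stood at 6.76, 8.63 and 5.51 CPM in Ctrl and 267, 231 and 244 CPM in LPS (5.14 ± 0.14), and CCL5, an attractant of T cells, at 5.82, 5.40 and 6.03 CPM in Ctrl and 89.7, 85.7 and 83.9 CPM in LPS (3.91 ± 0.06). CXCL16, already present without LPS, rose least, from 96.3, 114 and 116 CPM to 123, 134 and 149 CPM (0.32 ± 0.03).

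The sequences before 5 of these genes are shown because they are the largest rises whose RefSeq promoter (250 bases before and 50 after the first transcribed base, GRCh38.p14) holds the letters of an NF-κB site. The motif searched was GGNNNTTCC on both strands, and matches stand in capitals. TNIP3 has other starts in the table, and the first listed was taken.
TNIP3 (chromosome 4, minus strand, 121227434 to 121227733): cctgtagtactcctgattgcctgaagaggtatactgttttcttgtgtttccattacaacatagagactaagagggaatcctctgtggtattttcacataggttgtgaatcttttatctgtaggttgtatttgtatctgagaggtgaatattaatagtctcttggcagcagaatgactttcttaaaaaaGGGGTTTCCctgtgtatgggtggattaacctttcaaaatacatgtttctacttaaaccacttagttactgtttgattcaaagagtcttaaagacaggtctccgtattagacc
CXCL10 (chromosome 4, minus strand, 76023448 to 76023747): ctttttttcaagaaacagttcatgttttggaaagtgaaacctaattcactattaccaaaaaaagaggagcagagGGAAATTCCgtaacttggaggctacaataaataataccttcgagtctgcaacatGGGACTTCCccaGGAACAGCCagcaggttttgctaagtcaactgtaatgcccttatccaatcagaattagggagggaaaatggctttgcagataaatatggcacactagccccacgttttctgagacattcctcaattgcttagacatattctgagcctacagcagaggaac
CCL20 (chromosome 2, plus strand, 227813592 to 227813891): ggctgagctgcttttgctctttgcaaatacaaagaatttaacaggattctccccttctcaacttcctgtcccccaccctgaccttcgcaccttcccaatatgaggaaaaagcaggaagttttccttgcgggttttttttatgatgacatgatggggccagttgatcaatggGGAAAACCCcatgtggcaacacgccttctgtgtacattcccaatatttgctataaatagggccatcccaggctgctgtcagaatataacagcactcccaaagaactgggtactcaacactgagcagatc
PTX3 (chromosome 3, plus strand, 157436600 to 157436899): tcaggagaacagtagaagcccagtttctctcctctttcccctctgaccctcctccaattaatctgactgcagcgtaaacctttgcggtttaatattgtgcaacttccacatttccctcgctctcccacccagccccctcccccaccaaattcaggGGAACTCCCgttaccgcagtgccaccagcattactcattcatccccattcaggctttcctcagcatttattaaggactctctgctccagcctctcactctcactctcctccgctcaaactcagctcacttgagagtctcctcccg
CXCL8 (chromosome 4, plus strand, 73740319 to 73740618): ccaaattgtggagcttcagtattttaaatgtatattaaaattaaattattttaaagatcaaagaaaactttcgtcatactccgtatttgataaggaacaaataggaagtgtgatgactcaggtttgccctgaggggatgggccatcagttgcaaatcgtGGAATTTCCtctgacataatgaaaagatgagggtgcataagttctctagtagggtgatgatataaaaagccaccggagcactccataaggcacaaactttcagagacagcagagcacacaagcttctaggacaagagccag
Counted from the first transcribed base, the matches begin at −62 in TNIP3, −176, −122 and −110 in CXCL10, −79 in CCL20, −95 in PTX3 and −91 in CXCL8. CXCL10 and CCL20 held 3 CpG dinucleotides each and TNIP3 held 1, against a median of 26 over the 10723 tested genes with a promoter in the table. In that whole set 23.3% of promoters held the NF-κB letters. Of the 20 largest rises, 15 had a promoter in the table and 8 held them. Among genes that rose at least 4-fold, 82 of 267 promoters (30.7%) held them, and among genes that fell at least 4-fold 32 of 167 (19.2%). The table covers 69.7% of the tested genes, and less than 80% of the genes in each of these sets, so that no comparison between the sets is made from these shares. A match is a stretch of letters and does not show that NF-κB binds there.

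**Figure D2:**
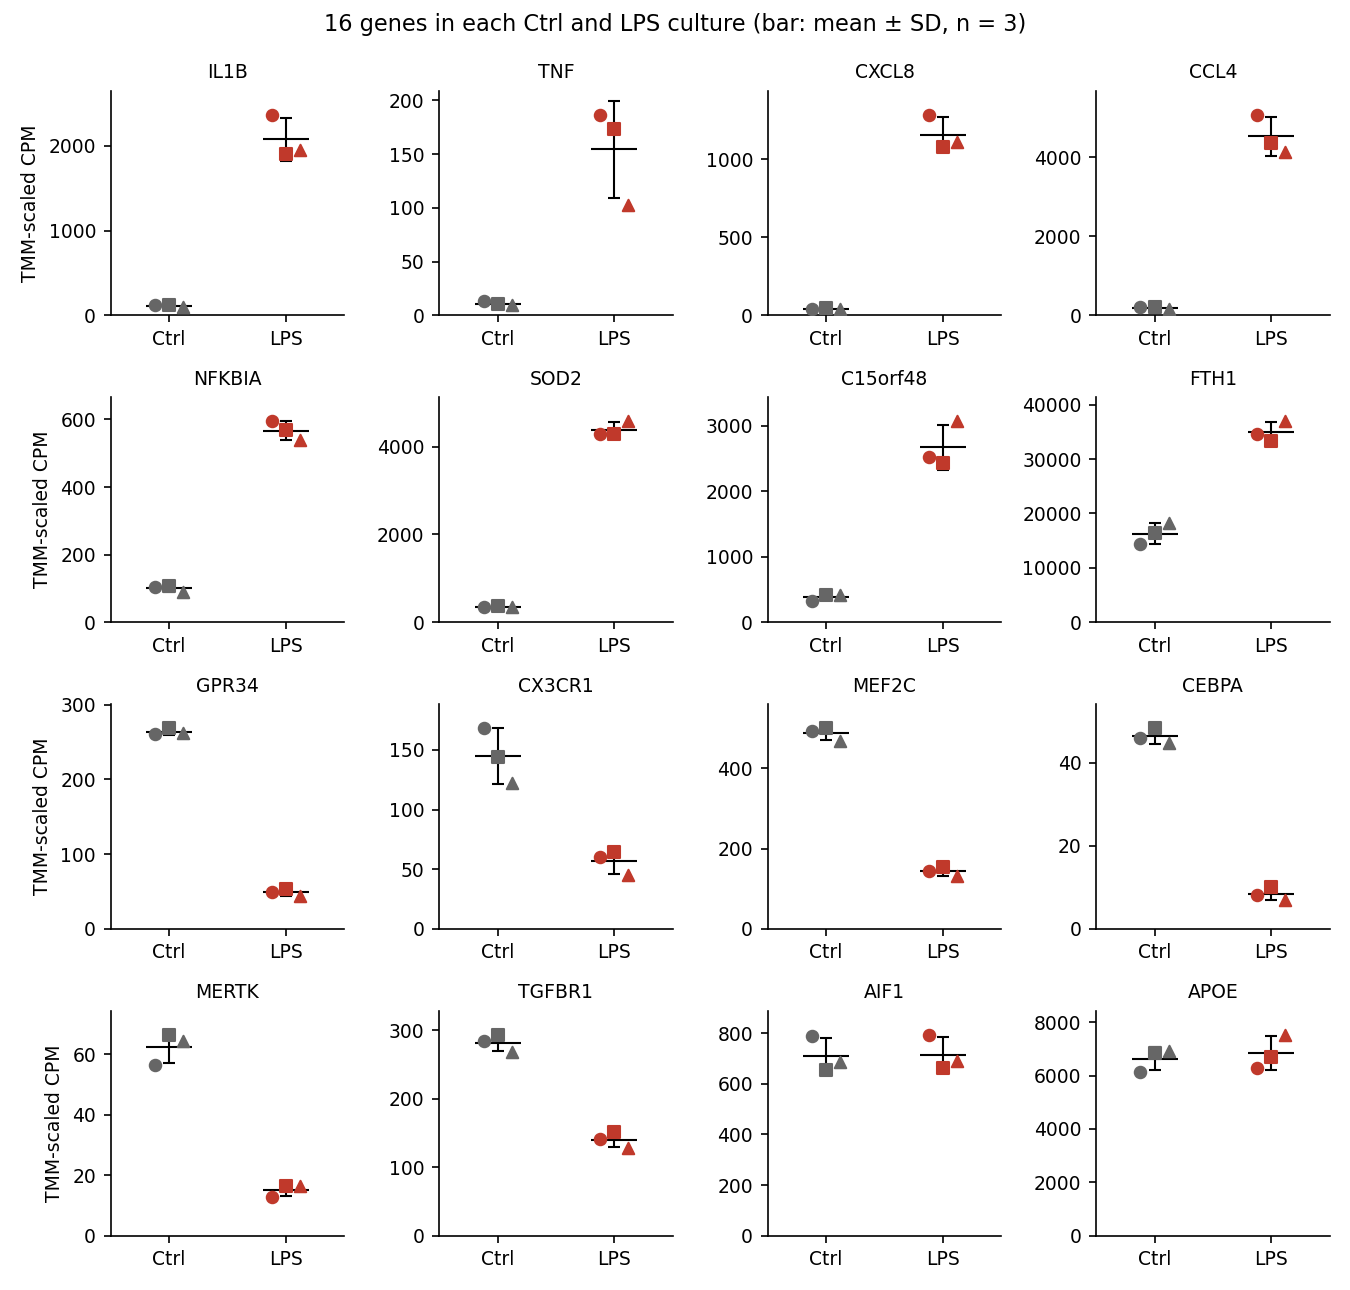
TMM-scaled CPM (y axis, from 0) of 16 genes in each Ctrl (grey) and LPS (red) culture, with circle, square and triangle for cultures 1, 2 and 3 and bars for the mean ± SD (n = 3). The groups do not overlap in the first 14 panels, and they overlap for AIF1 and APOE, which did not pass the main test and were called lower at library size alone. APOE was called higher in some alternatives with TMM scaling.

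At a fixed depth, some of these transcripts were seen in nearly every cell and others in few. To compare cells of unlike depth, each cell was thinned to 10000 UMIs, which left out 13 to 32 shallower cells per culture. SOD2, the mitochondrial superoxide dismutase, was seen in 90.58, 91.66 and 89.82% of Ctrl cells and in 100, 99.92 and 100% of LPS cells. IL1B was seen in 46.66, 47.07 and 46.11% of Ctrl and in 92.5, 89.03 and 88.52% of LPS cells. For CXCL8 the shares were 21.32, 22.71 and 23.63% against 80.66, 78.13 and 80.31%. TNF was seen in 8.99, 8.75 and 8.41% of Ctrl cells, and in 53.26, 50.67 and 39.53% of LPS cells. No LPS culture came near the Ctrl range for any of these. CCL20 reached 32.1, 30.52 and 32.34% of LPS cells, from 5.74, 5.62 and 4.51%. CCL8, for all its fold change, was seen in 11, 10.67 and 8.44% of LPS cells, and CXCL10 in 13.17, 11.42 and 9.84%. IL6 was seen in 10.09, 8.13 and 4.69% and IL12B in 2.94, 1.34 and 1.09% of LPS cells.

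The level within a cell differed as well. In LPS-1, LPS-2 and LPS-3 the tenth of cells richest in the gene held 21.2, 20.4 and 19.5% of all SOD2 UMIs, but 75.8, 79.3 and 78.1% of those of CCL20. For IL1B this share was 35.3, 40.3 and 37.0%, and for TNF 50.4, 52.1 and 55.2%. A cell with any IL12B held on average 2.55, 6.83 and 5.29 of its UMIs, with up to 39 in a cell. Without thinning, 95.10% of LPS-2 cells had IL1B, 73.10% TNF and 16.16% IL6. The lower shares depend on depth, and IL6 was seen in 5.12% of LPS-1 cells at 5000 UMIs, 10.09% at 10000 UMIs and 20.15% without thinning, so that they are not the share of cells that express the gene. The data hold no cell type that should lack these genes, and the Ctrl share includes any free RNA and unmarked doublets of the shared droplets.

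**Figure D3:**
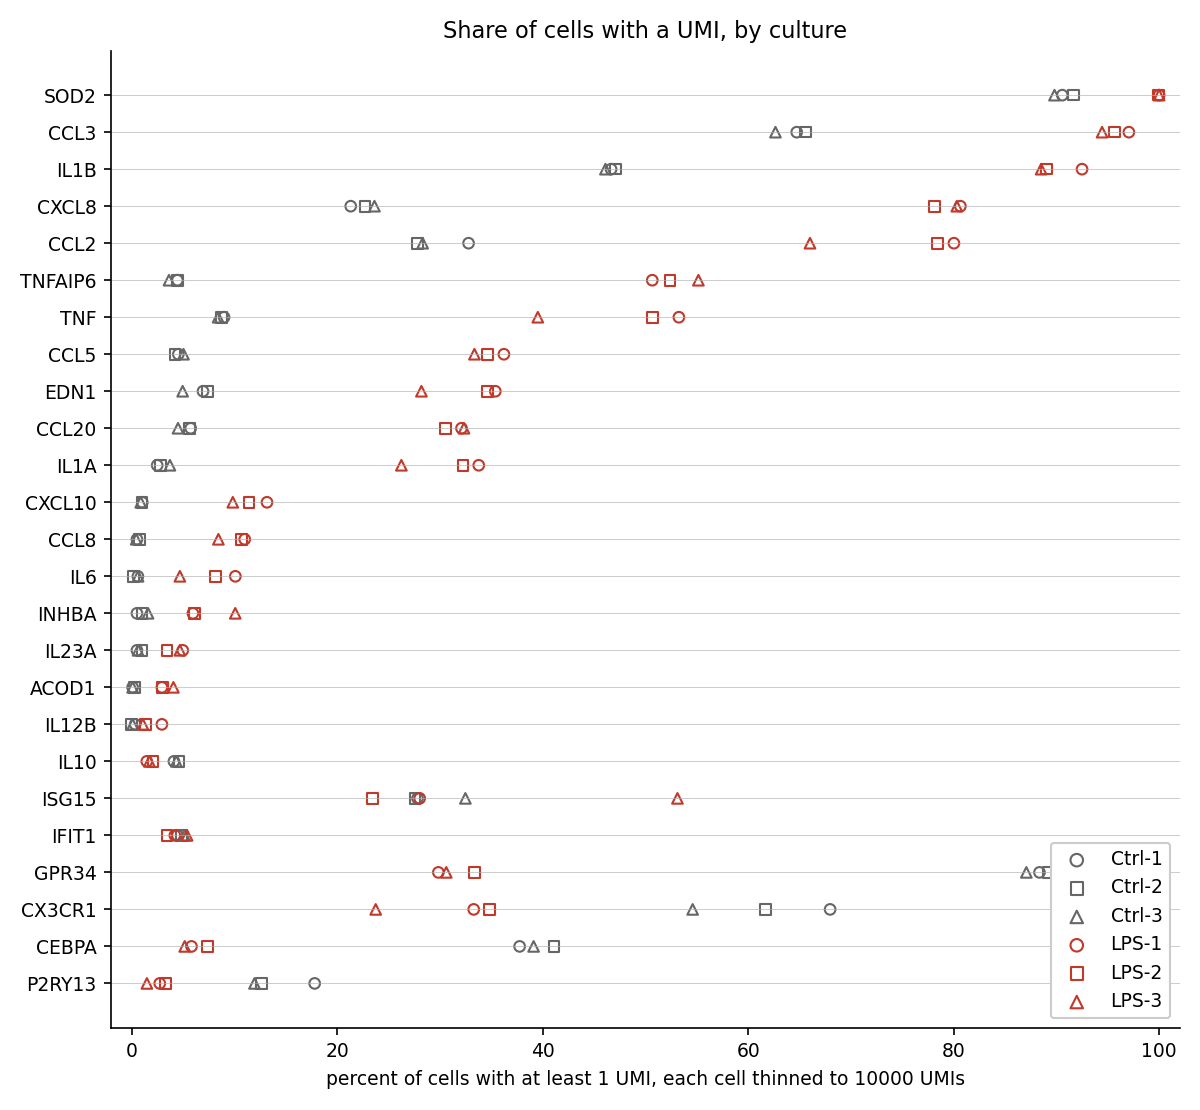
Percent of cells with at least 1 UMI (x axis) of 25 genes (rows) in each Ctrl (grey) and LPS (red) culture, after thinning each cell to 10000 UMIs. LPS points lie to the right of Ctrl points from SOD2 to IL12B and to the left for IL10, GPR34, CX3CR1, CEBPA and P2RY13; IFIT1 overlaps, and for ISG15 LPS-3 stands at 53.12% beside 28.03 and 23.43% in LPS-1 and LPS-2.

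Genes of negative feedback went both ways, where 32.8% of all tested genes rose and 32.2% fell. Of 28 tested genes of mRNA decay and MAP kinase feedback, 14 rose and 10 fell, with a median of 0.23. At library size alone 14 rose and 13 fell, with a median of 0.03. ZC3H12A, the nuclease Regnase-1 that degrades cytokine mRNA, rose from 11, 13.7 and 9.55 CPM to 93.1, 97.1 and 89.6 CPM (3.03 ± 0.06). The MAP kinase phosphatases DUSP2 (2.75 ± 0.10) and DUSP5 (1.97 ± 0.10) rose with it, whereas DUSP7, which acts on ERK, fell from 21.5, 23.6 and 20.3 CPM to 5.50, 6.48 and 5.09 CPM (−1.94 ± 0.07). SPRY2 and SPRED1, inhibitors of signalling from growth factor receptors to ERK, fell by 2.42 and 1.39 on the log2 scale. ZFP36L1 and ZFP36L2, which bind AU-rich tails of mRNA, fell by 0.53 and 0.79. The cytokine signalling genes moved more in one direction. Of 26 tested SOCS, STAT, JAK and IRF genes, 19 rose and 4 fell, with a median of 0.64. SOCS3, which blocks signalling by the interleukin-6 family, stood at 2.09, 2.01 and 1.45 CPM in Ctrl and 46.8, 48.5 and 38.4 CPM in LPS (4.59 ± 0.08), and JAK3 at 3.01, 4.13 and 2.95 CPM in Ctrl and 19.3, 21.1 and 19.5 CPM in LPS (2.57 ± 0.09). SOCS6 fell from 167, 174 and 139 CPM to 66.2, 65.6 and 53.8 CPM (−1.37 ± 0.03), and IRF5 from 15.4, 15.6 and 14.1 CPM to 8.96, 10.7 and 9.95 CPM (−0.61 ± 0.06).

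Interferon-induced genes rose on the whole, but unevenly among cultures. Of 44 tested, 29 rose and 6 fell, with a median of 0.70. The median of the single pairs was 0.52 for the cultures numbered 1, 0.39 for those numbered 2 and 0.79 for those numbered 3. IFIH1, the RNA sensor MDA5, stood at 20.7, 21.2 and 23.0 CPM in Ctrl and 47.0, 41.3 and 49.7 CPM in LPS (1.09 ± 0.05), and IFIT3 at 10.5, 11.9 and 12.7 CPM in Ctrl and 39.9, 27.7 and 32.9 CPM in LPS (1.52 ± 0.13). The groups did not overlap in either gene. The largest rise of the list was in GBP2, a guanylate-binding protein of the interferon-γ response, at 1.15, 0.458 and 0.300 CPM in Ctrl and 9.91, 8.58 and 8.99 CPM in LPS (3.83 ± 0.22). ISG15, a ubiquitin-like modifier, stood at 39.3, 38.2 and 52.0 CPM in Ctrl and 58.4, 41.5 and 135 CPM in LPS (0.79 ± 0.25, adjusted p = 0.0117), with LPS-3 far above the other 2 treated cultures, and LPS-2 within the range of Ctrl. IFI6, a mitochondrial interferon-induced protein, followed the same pattern, at 31.8, 40.5 and 43.0 CPM in Ctrl and 43.1, 35.3 and 194 CPM in LPS (1.02 ± 0.35), and so did IFI27, at 11.3, 6.29 and 7.45 CPM in Ctrl and 24.8, 6.71 and 44.0 CPM in LPS (1.48 ± 0.32). Without LPS-3, edgeR's adjusted p became 0.187 for ISG15, 0.383 for IFI6 and 0.00245 for IFI27, so that ISG15 and IFI6 no longer passed, and the log2 fold changes became 0.24, 0.11 and 0.84. Without Ctrl-3 the adjusted p was 0.0539 for ISG15 and 0.154 for IFI6, and DESeq2's Wald test gave 0.0687 and 0.0896. The hashtag of LPS-3 was the weakest of the 6, and its part in this was not tested. IFITM3, which blocks viral entry, was at 67.8, 64.6 and 70.2 CPM in Ctrl and 65.7, 59.6 and 145 CPM in LPS and did not pass (edgeR's adjusted p = 0.101); it passed as higher without LPS-1 (adjusted p = 0.0184) or without LPS-2 (0.0133), and as lower without LPS-3 (0.0284). The share of cells with IFIT1 did not rise, at 4.45, 4.87 and 5.13% in Ctrl against 4.2, 3.43 and 5.39% in LPS, while its level went from 5.66, 6.93 and 6.85 CPM to 17.7, 12.3 and 14.8 CPM (1.21 ± 0.20). A thinned LPS cell with any IFIT1 held 3.43, 3.39 and 2.45 of its UMIs, against 1.35, 1.58 and 1.48 in Ctrl. The falls were led by APOBEC3G, a cytidine deaminase (−1.03 ± 0.09), and OAS1, an RNA sensor (−0.60 ± 0.09).

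**Figure D4:**
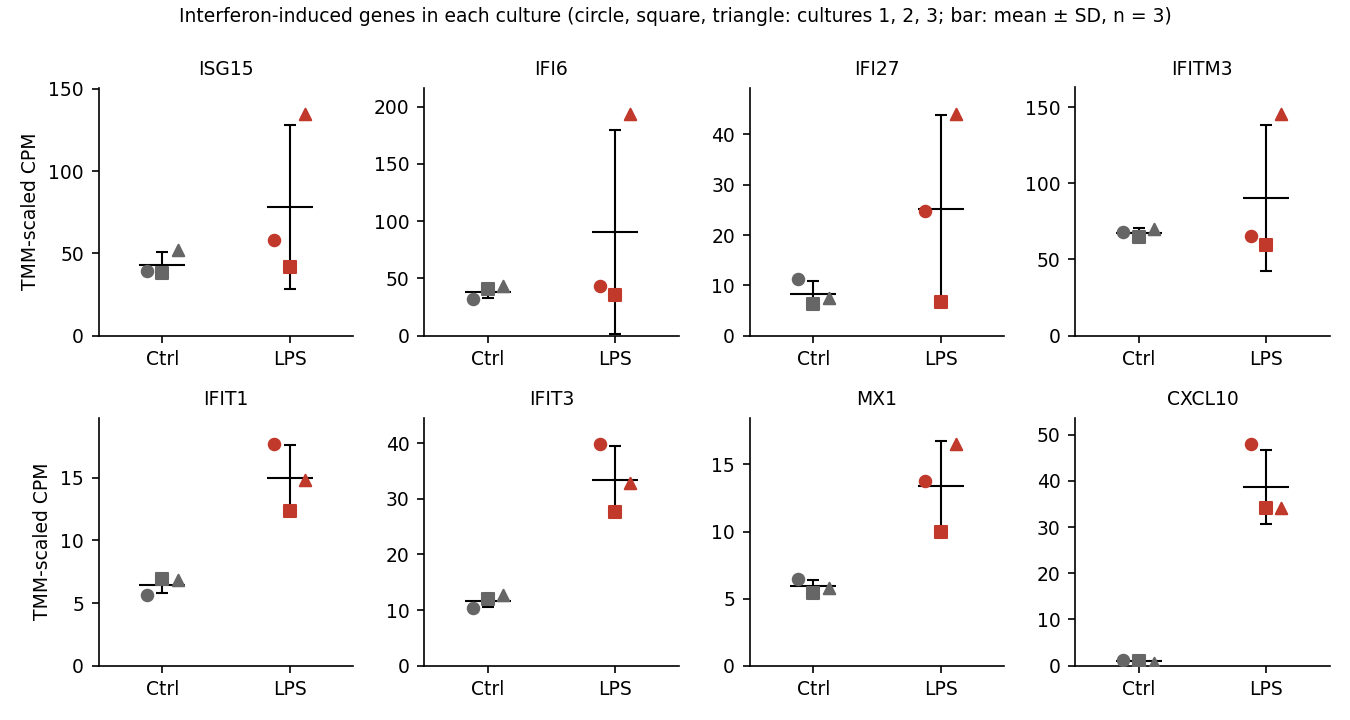
TMM-scaled CPM (y axis, from 0) of 8 interferon-induced genes in each Ctrl (grey) and LPS (red) culture, with circle, square and triangle for cultures 1, 2 and 3 and bars for the mean ± SD (n = 3). For ISG15, IFI6, IFI27 and IFITM3 the highest point is LPS-3, while for IFIT1, IFIT3 and CXCL10 it is LPS-1.

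Transcription factors changed in both directions, where 32.8% of all tested genes rose and 32.2% fell. Of 29 tested AP-1, ATF, EGR and NR4A genes with their early response partners, 17 rose and 9 fell, with a median of 0.37. BATF, a partner of IRF factors, stood at 1.68, 1.83 and 1.61 CPM in Ctrl and 13.5, 13.5 and 11.9 CPM in LPS (2.92 ± 0.08), and JUNB at 91.9, 105 and 89.9 CPM in Ctrl and 195, 190.0 and 173 CPM in LPS (0.96 ± 0.04). FOS, by contrast, stood at 79.2, 87.7 and 66.6 CPM in Ctrl and 41.5, 46.1 and 35.2 CPM in LPS (−0.93 ± 0.04), EGR2 at 13.1, 17.9 and 14.8 CPM in Ctrl and 4.59, 5.03 and 4.00 CPM in LPS (−1.74 ± 0.08) and EGR3 at 8.44, 9.02 and 9.0 CPM in Ctrl and 3.77, 4.02 and 3.51 CPM in LPS (−1.22 ± 0.09). In each of these the 3 LPS cultures lay below the 3 Ctrl cultures. Of 36 tested lineage factors of myeloid cells, 18 rose and 17 fell, and their median of 0.10 turned to −0.09 at library size alone. The C/EBP family went both ways. CEBPA (chromosome 19 at 33299934 to 33302564) stood at 46.0, 48.4 and 44.8 CPM in Ctrl and 8.10, 10.1 and 7.08 CPM in LPS, a log2 fold change of −2.46 ± 0.07, and CEBPD at 70.8, 74.7 and 80.5 CPM in Ctrl and 432, 390.2 and 395 CPM in LPS (2.43 ± 0.06). MEF2C, which supports microglial identity and restrains their response, stood at 493, 500.2 and 469 CPM in Ctrl and 144, 155 and 132 CPM in LPS (−1.76 ± 0.05), and its relative MEF2A at 214, 218 and 215 CPM in Ctrl and 89.5, 91.5 and 88.7 CPM in LPS (−1.26 ± 0.03). MAF, a macrophage factor, fell by 1.38 on the log2 scale. SPI1, the master factor PU.1, rose from 223, 229 and 231 CPM to 404, 385 and 397 CPM (0.80 ± 0.02). RUNX1 rose from 39.0, 46.8 and 45.4 CPM to 81.1, 80.5 and 82.4 CPM (0.90 ± 0.04). IRF8 rose by 1.02 ± 0.05 and AHR, the receptor for aromatic ligands, by 1.70 ± 0.04.

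Most genes of resting microglia fell. Of 35 tested, 24 fell, 12 of them at least 2-fold, and 8 rose, with a median of −0.39. GPR34, a receptor for lysophosphatidylserine (chromosome X at 41688973 to 41697277), stood at 260.2, 269 and 262 CPM in Ctrl and 49.7, 53.4 and 44.4 CPM in LPS, a log2 fold change of −2.42 ± 0.05 with adjusted p = 5.64e-16. It was seen in 88.36, 89.18 and 87.08% of Ctrl cells and in 29.85, 33.36 and 30.62% of LPS cells after thinning. CX3CR1, the receptor for neuronal fractalkine, stood at 168, 144 and 122 CPM in Ctrl and 60.5, 64.7 and 45.0 CPM in LPS (−1.35 ± 0.07), with cells from 67.98, 61.68 and 54.6% down to 33.29, 34.85 and 23.75%. P2RY12 stood at 28.0, 26.6 and 20.4 CPM in Ctrl and 4.41, 4.87 and 3.87 CPM in LPS and P2RY13, a further ADP receptor, at 19.6, 14.9 and 14.7 CPM in Ctrl and 4.21, 3.16 and 1.37 CPM in LPS (−2.48 ± 0.14). MERTK, which binds dying cells, stood at 56.4, 66.4 and 64.4 CPM in Ctrl and 12.7, 16.6 and 16.4 CPM in LPS (−2.04 ± 0.06), and CSF1R, on which microglia depend for survival, at 177, 174 and 175 CPM in Ctrl and 89.5, 97.8 and 95.1 CPM in LPS (−0.90 ± 0.03). No LPS culture reached the range of the Ctrl cultures in these genes. AIF1, which encodes the marker IBA1, stood at 790.4, 653 and 685 CPM in Ctrl and 793, 661 and 691 CPM in LPS, and APOE, a lipid carrier, at 6143, 6847 and 6911 CPM in Ctrl and 6284, 6708 and 7530.2 CPM in LPS, and neither passed (edgeR's adjusted p = 0.664 and adjusted p = 0.114). At library size alone both were called lower with LPS, at log2 fold changes of −0.19 and −0.16. Yet APOE was called higher in library 2 alone (edgeR's adjusted p = 0.0223) and with at most 20% mitochondrial UMIs (0.0046). It was also called higher without Ctrl-2 (0.0157) and without LPS-2 (0.0355). C1QB, a chain of complement C1q, was higher with LPS, at 1251, 1190.0 and 1146 CPM in Ctrl and 1966, 1758 and 1924 CPM in LPS (0.65 ± 0.03).

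Genes of the response to TGF-β, a component of the medium, mostly fell as well. Of 25 tested genes, 18 fell and 5 rose, with a median of −0.47. The receptor genes TGFBR1 and TGFBR2 stood at 285, 293 and 268 CPM in Ctrl and 141, 151 and 129 CPM in LPS and at 76.0, 85.8 and 85.4 CPM in Ctrl and 41.2, 50.2 and 42.4 CPM in LPS, log2 fold changes of −1.01 ± 0.03 and −0.89 ± 0.04. ID2, ID3 and ID1 are targets of SMAD signalling that block other transcription factors. ID2 fell by 1.20 and ID3 by 2.04 on the log2 scale, with groups apart. ID1 fell by 2.59, from 6.58, 7.67 and 6.33 CPM to 1.06, 1.45 and 0.891 CPM. SMAD7, an inhibitory SMAD and a target of the pathway, fell from 75.8, 88.5 and 76.3 CPM to 44.1, 51.4 and 45.7 CPM (−0.77 ± 0.03). The repressors of SMADs split, with SKI at −1.25 ± 0.04 and SKIL at 0.76 ± 0.03.

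**Figure D5:**
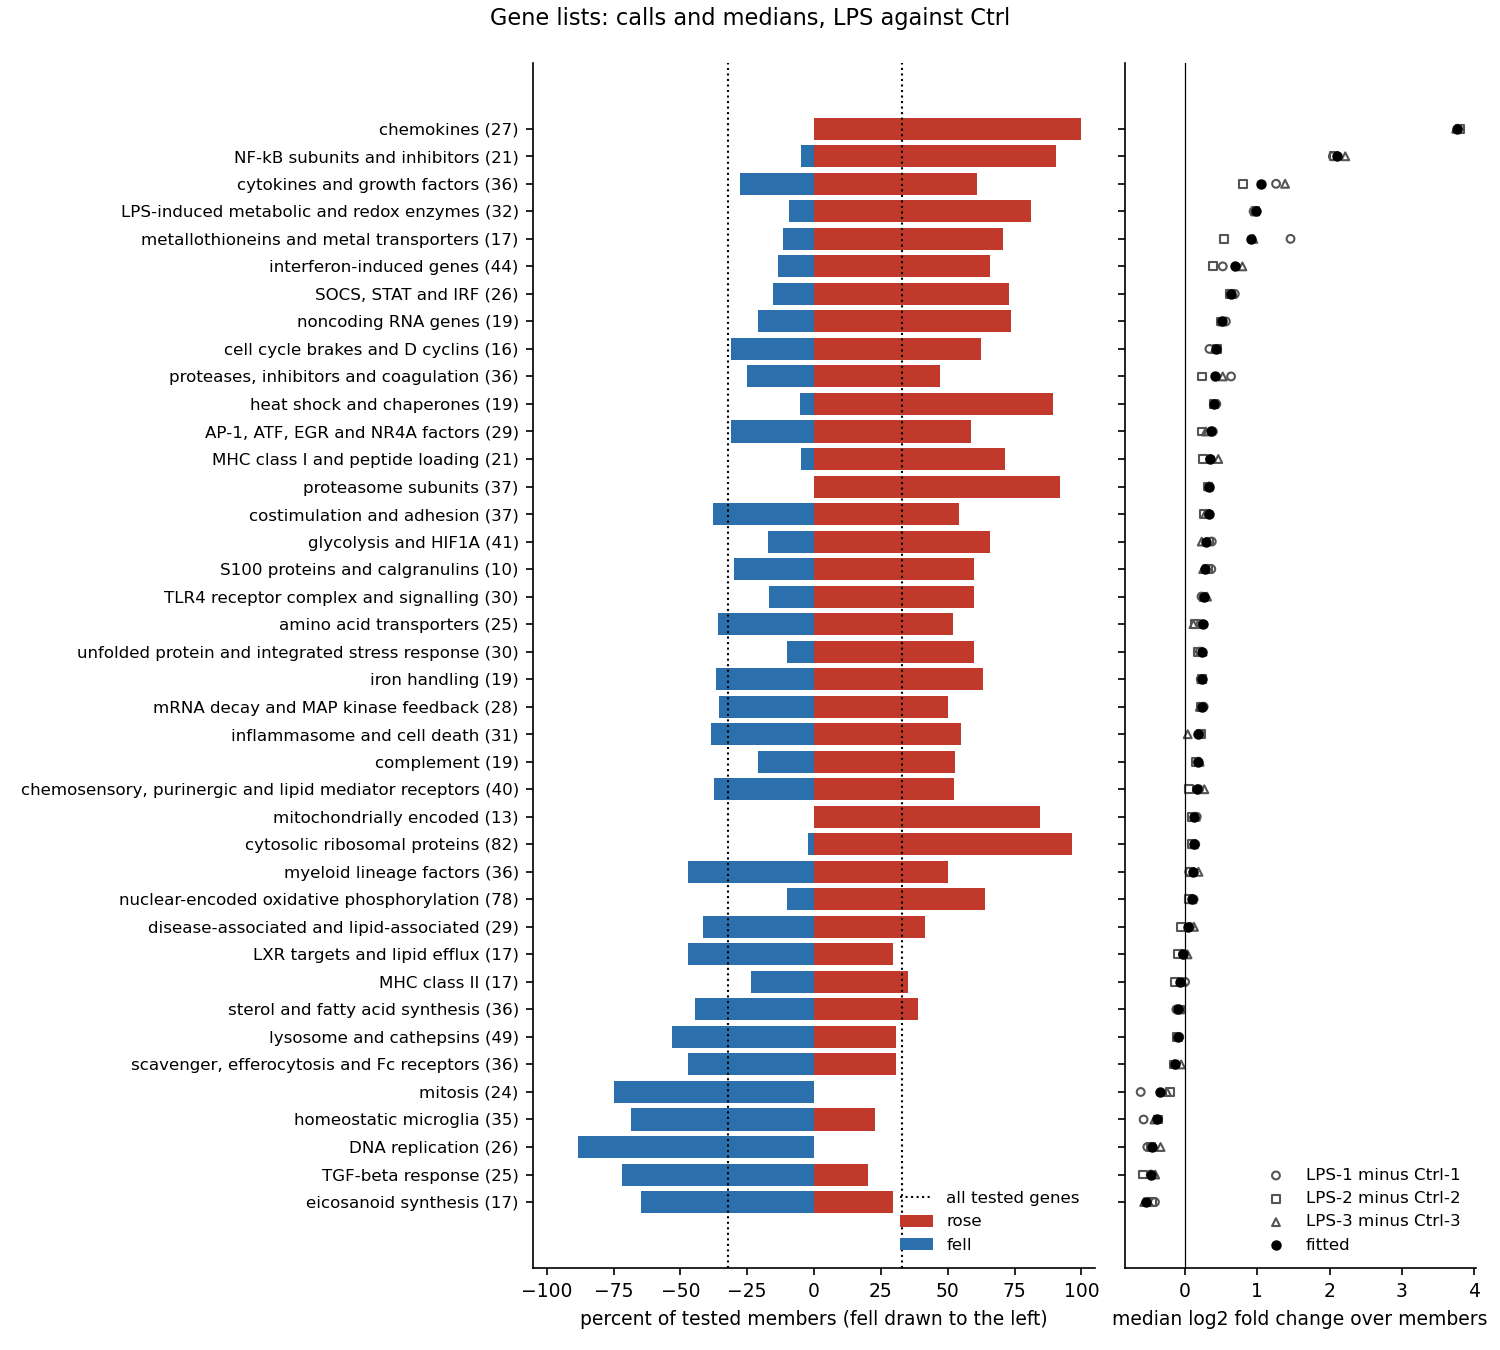
For 40 gene lists (rows, tested members in brackets), the left panel gives the percent of members that rose (red) and fell (blue, drawn to the left), with dotted lines at the 32.8 and 32.2% of all tested genes, and the right panel gives the median log2 fold change from the fit and from each pair of same-numbered cultures. Chemokines lie furthest to the right at 3.76, and eicosanoid synthesis furthest to the left at −0.54.

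Most class I genes of antigen presentation rose. Of 21 tested class I and peptide-loading genes, 15 rose and 1 fell, with a median of 0.35. TAP1, a chain of the peptide transporter, stood at 8.57, 8.51 and 8.43 CPM in Ctrl and 39.3, 39.2 and 39.0 CPM in LPS (2.20 ± 0.04), and PSME2, a chain of the proteasome activator, at 87.3, 79.4 and 84.1 CPM in Ctrl and 177, 170.0 and 189 CPM in LPS (1.10 ± 0.04). HLA-B rose from 139.6, 147 and 149 CPM to 236, 225 and 272 CPM (0.75 ± 0.04) and HLA-E fell from 94.1, 108 and 103 CPM to 71.8, 79.9 and 86.8 CPM (−0.35 ± 0.04); reads of HLA genes can be shared among relatives. Of 17 tested class II genes, 6 rose and 4 fell, none of the rises reaching 2-fold, with a median of −0.07; over all tested genes 32.8% rose and 32.2% fell. At library size alone 3 rose and 10 fell, with a median of −0.27. HLA-DMB, a chain of the peptide exchanger HLA-DM, stood at 71.6, 63.8 and 65.6 CPM in Ctrl and 31.1, 29.6 and 25.2 CPM in LPS (−1.23 ± 0.05), and CIITA, the master regulator of class II, fell from 4.62, 3.67 and 3.47 CPM to 2.66, 2.27 and 2.37 CPM (−0.69 ± 0.12). CD74, the invariant chain, stood at 538, 490.1 and 448 CPM in Ctrl and 522, 447 and 437 CPM in LPS and did not pass (edgeR's adjusted p = 0.0509), though it was called lower at library size alone, at a log2 fold change of −0.27. With TMM scaling it was called lower in the 6 cultures alone (edgeR's adjusted p = 0.0128) and with a filter of 5 CPM in 3 cultures (0.00202). The same held in library 2 alone (0.041) and in several fits with a single culture left out. Costimulation and adhesion genes went both ways, with 20 of 37 up and 14 down and a median of 0.33. CD40, the receptor for T cell help, stood at 37.2, 34.0 and 32.0 CPM in Ctrl and 206, 181 and 193 CPM in LPS (2.49 ± 0.04), ICAM1, a ligand of leukocyte integrins, at 42.6, 49.2 and 44.6 CPM in Ctrl and 231, 231 and 211 CPM in LPS (2.30 ± 0.04), and SLAMF7, a homotypic receptor, at 26.3, 26.8 and 25.5 CPM in Ctrl and 241, 238 and 232 CPM in LPS (3.18 ± 0.05). CD83 reached 1161, 1009 and 987 CPM from 154, 186 and 150.5 CPM (2.69 ± 0.08). Markers of dendritic cells, a cell type known for CCR7, CD83 and LAMP3 on maturation, summed to 33.2 to 42.6 CPM in Ctrl and 87.4 to 106 CPM in LPS cultures before scaling. Of the 4 tested markers in this sum, 3 rose (LAMP3, CCR7 and CLEC10A) and 1 fell (CD1C). CD1C went from 37.3, 27.7 and 30.4 CPM to 18.8, 16.3 and 13.4 CPM, and LAMP3 from 3.35, 3.39 and 1.81 CPM to 78.1, 62.9 and 71.4 CPM. CLEC10A went from 1.69, 1.97 and 1.41 CPM to 3.71, 2.92 and 2.29 CPM. Of the same list, XCR1 was at 0, and CLEC9A, FLT3 and FCER1A had at most 3 UMIs in either group. The inhibitory receptors HAVCR2, also called TIM-3, and VSIR, also called VISTA, fell by 1.52 and 2.03 on the log2 scale.

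Inflammasome and cell death genes changed without a common direction, where 32.8% of all tested genes rose and 32.2% fell. Of 31 tested, 17 rose and 12 fell, and their median of 0.18 turned to −0.02 at library size alone. CASP5, an intracellular sensor of LPS, stood at 4.18, 4.23 and 3.44 CPM in Ctrl and 65.8, 60.5 and 66.6 CPM in LPS, a log2 fold change of 4.02 ± 0.07, and CASP1, which matures interleukin-1β, at 77.2, 63.4 and 69.4 CPM in Ctrl and 166, 142 and 155 CPM in LPS (1.14 ± 0.03). PYCARD, the adaptor ASC that joins sensors to caspase-1, fell from 221, 214 and 214 CPM to 106, 107 and 97.6 CPM (−1.06 ± 0.04). GSDMD, the pore protein of pyroptosis, fell from 14.9, 13.4 and 13.7 CPM to 10.0, 10.1 and 11 CPM (−0.44 ± 0.07). Genes that protect from death were among the rises, with BCL2A1 at 2.62 ± 0.09, CFLAR, the inhibitor of caspase-8, at 1.74 ± 0.03 and BCL2 at 1.30 ± 0.04. CASP8 itself fell by 0.95 and MLKL, the executor of necroptosis, by 2.04 on the log2 scale.

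Receptors for lipid mediators, nucleotides and metabolites changed in both directions, where 32.8% of all tested genes rose and 32.2% fell. Of 40 tested, 21 rose, 16 of them at least 2-fold, and 15 fell, 11 of them at least 2-fold. The median of 0.17 turned to −0.03 at library size alone. EBI3, the cytokine chain given above, is no receptor but is counted in the 40, the 21 and the 16. ADORA2A, the adenosine receptor that raises cyclic AMP, stood at 0.765, 0.688 and 0.518 CPM in Ctrl and 24.5, 18.9 and 23.1 CPM in LPS (5.06 ± 0.16), while its relative ADORA3 stood at 63.0, 63.8 and 66.7 CPM in Ctrl and 15.1, 16.4 and 13.8 CPM in LPS (−2.09 ± 0.06). The prostaglandin receptors PTGER4 (1.94 ± 0.05) and PTGIR (3.70 ± 0.10) and the receptor PTAFR for platelet-activating factor (1.80 ± 0.04) rose. GPR84, a receptor for medium-chain fatty acids, stood at 43.1, 41.6 and 41.0 CPM in Ctrl and 161, 147 and 137 CPM in LPS (1.82 ± 0.04). Receptors for lysophosphatidic acid fell, LPAR6 from 129.6, 145 and 140.1 CPM to 40.2, 40.9 and 39.4 CPM (−1.79 ± 0.06) and LPAR5 from 29.5, 32.4 and 31.0 CPM to 8.32, 9.75 and 9.32 CPM (−1.76 ± 0.06). CCR7, which guides cells to lymph nodes, stood at 0.204, 0.153 and 0.136 CPM in Ctrl and 6.19, 5.59 and 11.6 CPM in LPS (5.50 ± 0.50), with LPS-3 at about as much as the other 2 together. Of 17 tested genes of eicosanoid synthesis, 11 fell and 5 rose, with a median of −0.54. HPGDS, which makes prostaglandin D2, stood at 159, 135 and 136 CPM in Ctrl and 57.1, 54.9 and 53.0 CPM in LPS (−1.38 ± 0.04), and ALOX5AP, which feeds the leukotriene pathway, at 1068, 936 and 1005 CPM in Ctrl and 849, 679 and 672 CPM in LPS (−0.46 ± 0.03). PTGS2, the inducible cyclooxygenase, rose but stayed scarce, at 0.893, 0.662 and 0.518 CPM in Ctrl and 4.97, 2.92 and 5.07 CPM in LPS (2.62 ± 0.21).

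Most metabolic and redox enzymes known from macrophages treated with LPS rose. Of 32 tested, 26 rose, 16 of them at least 2-fold, and 3 fell, with a median of 0.98. SOD2 (chromosome 6 at 159669057 to 159745186) stood at 345, 364 and 336 CPM in Ctrl and 4293, 4287 and 4580.1 CPM in LPS, a log2 fold change of 3.65 ± 0.05 with adjusted p = 8.17e-17. C15orf48, a mitochondrial protein that replaces a subunit of complex IV, stood at 325, 409 and 411 CPM in Ctrl and 2526, 2426 and 3064 CPM in LPS (2.81 ± 0.06), and NAMPT, which recycles nicotinamide to NAD, at 58.9, 58.5 and 60.9 CPM in Ctrl and 479, 457 and 589.8 CPM in LPS (3.09 ± 0.08). KYNU and KMO encode enzymes of the kynurenine pathway of tryptophan; KYNU stood at 22.1, 25.5 and 25.2 CPM in Ctrl and 186, 183 and 222 CPM in LPS (3.02 ± 0.06) and KMO at 4.77, 4.05 and 4.23 CPM in Ctrl and 49.8, 48.6 and 50.5 CPM in LPS (3.51 ± 0.06). GCH1, the first enzyme of tetrahydrobiopterin synthesis, rose by 3.75 ± 0.08. NCF1, a cytosolic part of the NADPH oxidase with near-identical pseudogenes, stood at 94.5, 82.4 and 87.3 CPM in Ctrl and 749, 673 and 639 CPM in LPS (2.96 ± 0.06), and NCF4, a further part of the enzyme, fell by 0.60 on the log2 scale. ACOD1, which makes itaconate, went from 0.0510, 0.153 and 0.0273 CPM to 5.23, 3.58 and 5.35 CPM (5.86 ± 0.34, and 6.83 without Ctrl-2) and was seen in 2.94, 2.98 and 4.06% of thinned LPS cells. Of 41 tested genes of glycolysis with HIF1A, 27 rose and 7 fell, 4 and 3 of them at least 2-fold, with a median of 0.29, and 20 rose and 11 fell at library size alone. HIF1A stood at 174, 181 and 202 CPM in Ctrl and 370.0, 371 and 454 CPM in LPS (1.10 ± 0.06), SLC2A6, a lysosomal hexose transporter, at 10.8, 12.1 and 8.70 CPM in Ctrl and 108, 105 and 95.6 CPM in LPS (3.29 ± 0.06), and EPAS1, the relative of HIF1A, at 24.6, 26.4 and 28.6 CPM in Ctrl and 11.6, 13.2 and 13.8 CPM in LPS (−1.04 ± 0.05). Beside the 32.8% of all tested genes that rose and the 32.2% that fell, 13 of 25 amino acid transporters rose and 9 fell. Their median was 0.25, but 10 rose and 10 fell at library size alone, with a median of 0.05. SLC7A11, the cystine carrier, rose by 2.43 ± 0.09 and SLC7A8, a carrier of large neutral amino acids, fell by 2.45.

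Iron handling genes went both ways, where 32.8% of all tested genes rose and 32.2% fell. Of 19 tested, 12 rose and 7 fell, with a median of 0.24, and 8 rose and 7 fell at library size alone. FTH1, the ferritin heavy chain (chromosome 11 at 61959718 to 61967660), stood at 14382, 16344 and 18179.8 CPM in Ctrl and 34606, 33321 and 36949 CPM in LPS, a log2 fold change of 1.11 ± 0.04 with adjusted p = 4.32e-13. That was 475, 521 and 582 UMIs per Ctrl cell and 1070, 1040 and 1120 UMIs per LPS cell. FTL, the light chain, was at 961, 1010 and 1070 UMIs per Ctrl cell and 1110, 1130 and 1180 UMIs per LPS cell; its log2 fold change was 0.23 and only 0.04 at library size alone, where its share of UMIs overlapped between the groups. TFRC, the transferrin receptor, stood at 85.6, 97.5 and 90.0 CPM in Ctrl and 297, 329 and 327 CPM in LPS (1.80 ± 0.03), SLC11A2, which carries iron out of endosomes, at 69.6, 77.8 and 71.8 CPM in Ctrl and 149, 155 and 156 CPM in LPS (1.07 ± 0.04), and the metalloreductase STEAP4 at 0.0510, 0.255 and 0.164 CPM in Ctrl and 7.90, 7.70 and 6.95 CPM in LPS (5.57 ± 0.27). SLC40A1, the exporter ferroportin, stood at 15.5, 13.3 and 13.9 CPM in Ctrl and 3.93, 4.12 and 2.04 CPM in LPS (−2.07 ± 0.15). HAMP, the peptide hepcidin that removes ferroportin from the membrane, stood at 3.78, 3.11 and 4.01 CPM in Ctrl and 21.3, 14.7 and 17.9 CPM in LPS (2.31 ± 0.16). CYBRD1, a ferric reductase of iron uptake, fell from 10.5, 10.5 and 10.7 CPM to 5.79, 6.57 and 6.41 CPM (−0.76 ± 0.07). Of 17 tested metallothioneins and metal transporters, 12 rose and 2 fell, with a median of 0.91. MT2A, a metallothionein whose relatives are alike in sequence, stood at 10.1, 25.1 and 16.9 CPM in Ctrl and 119, 110.2 and 148 CPM in LPS (2.87 ± 0.19, and 2.27 with cells of up to 20% mitochondrial UMIs), and SLC39A8, a zinc importer, at 14.3, 12.7 and 12.9 CPM in Ctrl and 39.3, 35.8 and 37.2 CPM in LPS (1.49 ± 0.05). ATP7A, a copper exporter, fell by 1.22 on the log2 scale.

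Lipid, lysosomal and phagocytic genes had group medians near 0 after TMM scaling. Their counts are to be read beside the 32.8% of all tested genes that rose and the 32.2% that fell. Of 29 tested disease-associated and lipid-associated genes, 12 rose and 12 fell, and the median of 0.04 turned to −0.16 at library size alone. TREM2, the lipid sensor of microglia, stood at 459, 543 and 518 CPM in Ctrl and 299.8, 337 and 355 CPM in LPS (−0.62 ± 0.03), LPL, a lipase, at 395, 454 and 455 CPM in Ctrl and 187, 219.8 and 216 CPM in LPS (−1.07 ± 0.05), and CHI3L1, a secreted chitinase-like protein, at 200.2, 270.0 and 371 CPM in Ctrl and 410.3, 559 and 569.8 CPM in LPS (0.90 ± 0.06). SPP1, the secreted protein osteopontin, held 3.75, 4.37 and 4.15% of UMIs in Ctrl and 3.96, 4.17 and 4.27% in LPS cultures. Its log2 fold change was 0.22 after TMM scaling, where it passed. It was 0.02 at library size alone and with limma, where it did not pass. Of 49 lysosomal genes, 26 fell and 15 rose, with a median of −0.10, and of 36 scavenger, efferocytosis and Fc receptor genes 17 fell and 11 rose, with a median of −0.14. At library size alone 33 of the lysosomal genes fell and 10 rose (median −0.30), and 21 of the receptor genes fell and 9 rose (median −0.34). Within the latter, CLEC4E, a receptor for mycobacterial glycolipid, rose from 1.07, 0.815 and 0.491 CPM to 16.5, 16.9 and 20.9 CPM (4.49 ± 0.15). The inhibitory receptor LILRB2 stood at 15.4, 15.2 and 15.9 CPM in Ctrl and 115, 104 and 125 CPM in LPS (2.89 ± 0.07), and MRC1, the mannose receptor, at 91.5, 104 and 102 CPM in Ctrl and 47.1, 56.2 and 49.1 CPM in LPS (−0.96 ± 0.04). Of 36 genes of sterol and fatty acid synthesis, 14 rose and 16 fell, with a median of −0.09, and at library size alone 7 rose and 20 fell, with a median of −0.29. LSS, which closes the sterol rings, rose from 13.2, 12.3 and 13.1 CPM to 38.9, 36.2 and 40.2 CPM (1.58 ± 0.05), while FDFT1, which makes squalene, fell (−0.64 ± 0.04). Of 17 LXR targets and lipid efflux genes, 5 rose and 8 fell, with a median of −0.03, and 3 rose and 10 fell at library size alone. NR1H3, the receptor LXRα, stood at 15.3, 20.1 and 21.4 CPM in Ctrl and 57.0, 73.9 and 81.9 CPM in LPS (1.90 ± 0.06), and PLTP, the phospholipid transfer protein, at 113, 119 and 124 CPM in Ctrl and 263, 247 and 270.2 CPM in LPS (1.13 ± 0.04). Of 19 complement genes, 10 rose and 4 fell, and the median of 0.17 turned to −0.03 at library size alone.

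Of 10 tested S100 genes, 6 rose and 3 fell, with a median of 0.28, where 32.8% of all tested genes rose and 32.2% fell. S100A9, a chain of secreted calprotectin, stood at 169, 185 and 179 CPM in Ctrl and 893, 844 and 851 CPM in LPS (2.28 ± 0.04), and S100A8, its partner, at 42.5, 53.9 and 47.9 CPM in Ctrl and 228, 264 and 256 CPM in LPS (2.38 ± 0.05). Both are also markers of monocytes, whose 8 markers summed to 363 to 435 CPM in Ctrl and 1160 to 1240 CPM in LPS cultures without scaling. Nearly all of that gain was in S100A8 and S100A9; VCAN went from 14.3, 15.3 and 7.36 CPM to 4.98, 8.32 and 3.85 CPM, and LYZ from 116, 161 and 157 CPM to 101, 166 and 132 CPM. CCR2, of the same list, had 1 UMI in the Ctrl and 4 UMIs in the LPS cultures. Among 36 proteases, inhibitors and coagulation genes, 17 rose and 9 fell, with a median of 0.42. PLAUR, the receptor of urokinase, stood at 224, 304 and 308 CPM in Ctrl and 533, 599 and 729 CPM in LPS (1.16 ± 0.05), SERPINB9, an inhibitor of granzyme B, at 5.82, 8.35 and 6.30 CPM in Ctrl and 32.3, 32.3 and 32.9 CPM in LPS (2.25 ± 0.09), and TIMP2, an inhibitor of metalloproteases, at 200.0, 228 and 226 CPM in Ctrl and 135, 148 and 153 CPM in LPS (−0.58 ± 0.02).

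Cell division genes were lower with LPS. Of 26 tested DNA replication genes, 23 fell and none rose, with a median of −0.45, and of 24 mitosis genes 18 fell and none rose, with a median of −0.35. The mitosis median was −0.61 in the cultures numbered 1, −0.20 in those numbered 2 and −0.25 in those numbered 3. None of the falls reached 2-fold. PRIM1, the small subunit of primase, stood at 16.1, 10.8 and 11.5 CPM in Ctrl and 8.47, 5.47 and 6.21 CPM in LPS (−0.93 ± 0.08), and TOP2A, a topoisomerase of dividing cells, at 118, 65.8 and 81.0 CPM in Ctrl and 56.6, 37.5 and 50.1 CPM in LPS (−0.86 ± 0.09). Same-numbered cultures differed together: Ctrl-1 and LPS-1 were the highest of their group for MKI67, a marker of cycling cells, at 76.8, 38.0 and 49.7 CPM in Ctrl and 50.7, 31.7 and 44.7 CPM in LPS (−0.35 ± 0.10), and the groups overlapped. MKI67 did not pass without Ctrl-1 (edgeR's adjusted p = 0.0744), without LPS-1 (0.0537), in library 1 alone (0.287), in the fit without the replicate block (0.211), or with DESeq2's Wald test (0.0517). In summed counts, fewer dividing cells and less RNA per dividing cell cannot be told apart. The 8 markers of proliferating cells summed to 501, 249 and 317 CPM in Ctrl and 283, 188 and 236 CPM in LPS before scaling. Of 16 brakes of the cycle and D cyclins, 10 rose and 5 fell, with a median of 0.42, where 32.8% of all tested genes rose and 32.2% fell. MYC, a driver of growth, stood at 43.0, 45.2 and 35.2 CPM in Ctrl and 105, 100.3 and 90.5 CPM in LPS (1.26 ± 0.05), BTG2, which restrains proliferation, at 119.7, 128 and 113 CPM in Ctrl and 242, 235 and 218 CPM in LPS (0.95 ± 0.04), and CDKN1C, the inhibitor p57, at 5.18, 5.83 and 7.04 CPM in Ctrl and 0.976, 1.31 and 0.560 CPM in LPS (−2.64 ± 0.22).

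Most proteasome and chaperone genes rose by small amounts. Of 37 tested proteasome subunits, 34 rose and none fell, with a median of 0.34, and 24 rose and 3 fell at library size alone. PSMA6, a subunit of the core ring, stood at 134, 119.6 and 129 CPM in Ctrl and 252, 225 and 263 CPM in LPS (0.95 ± 0.03). Of 19 heat shock and chaperone genes, 17 rose and 1 fell, with a median of 0.40, and 13 rose and 2 fell at library size alone, among them DNAJA1 (0.79 ± 0.02) and HSPA8 (0.59 ± 0.02). Of 30 genes of the unfolded protein and integrated stress responses, 18 rose and 3 fell, with a median of 0.24, but 10 rose and 8 fell at library size alone, with a median of 0.04. XBP1, which expands the secretory apparatus, stood at 33.1, 30.5 and 30.4 CPM in Ctrl and 85.8, 78.5 and 76.6 CPM in LPS (1.36 ± 0.04). Larger families moved by less than the scaling. Of 82 cytosolic ribosomal protein genes, 79 rose and 2 fell, with a median of 0.12, but at library size alone 7 rose and 61 fell, with a median of −0.08. Likewise 50 of 78 nuclear genes of oxidative phosphorylation rose and 8 fell after TMM scaling, against 6 and 55 at library size alone. Of 13 mitochondrially encoded genes, 11 rose and none fell after TMM scaling, and none rose and 12 fell at library size alone.

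Of 19 tested noncoding RNA genes, 14 rose and 4 fell, with a median of 0.51. LINC02605 stood at 1.45, 1.17 and 0.600 CPM in Ctrl and 51.8, 45.1 and 40.0 CPM in LPS (5.40 ± 0.11). LUCAT1 rose from 6.15, 6.55 and 7.29 CPM to 30.4, 28.2 and 32.3 CPM (2.19 ± 0.07), and NEAT1, the scaffold of paraspeckles, from 1238, 1455 and 1597 CPM to 1739.5, 1850.2 and 2188 CPM (0.43 ± 0.04). Among them are the host genes of miRNAs that dampen or tune TLR signalling. MIR3142HG (chromosome 5 at 160438594 to 160487426), whose span holds miR-146a, stood at 4.21, 3.79 and 3.57 CPM in Ctrl and 33.0, 28.8 and 31.2 CPM in LPS (3.00 ± 0.08). MIR155HG (chromosome 21 at 25561909 to 25575168), whose span holds miR-155, stood at 19.5, 19.8 and 20.3 CPM in Ctrl and 42.3, 38.2 and 34.9 CPM in LPS (0.95 ± 0.07). Each LPS culture exceeded each Ctrl culture for both hosts. The mature miRNAs were not measured, since the libraries read the 3′ ends of polyadenylated transcripts, and their RefSeq sequences are given to identify them, with the seed, bases 2 to 8, in capitals.
hsa-miR-146a-5p: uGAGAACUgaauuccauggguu
hsa-miR-155-5p: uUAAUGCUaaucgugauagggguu
The 2 seeds differ.

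Few genes were called as different in their response to LPS when γ-secretase was blocked. The difference between the LPS effect with semagacestat and without it, tested as an interaction over the 12 cultures, was called for 10 of 15383 genes (0.065%), 8 higher and 2 lower; 1226 genes had an unadjusted p under 0.05. Of the 2223 genes changed at least 2-fold without the inhibitor, 2085 were called in the same direction in SemaLPS against Sema. These genes were chosen for a large change, and 65.1% of all tested genes were called in LPS against Ctrl. The count is therefore no measure of how alike the responses were. SOCS6, which restrains cytokine and growth factor receptors, fell by 1.37 on the log2 scale with LPS alone and by 1.06 with both, a difference of 0.31 (SE 0.04, edgeR's adjusted p = 0.02). The metallothionein MT1X rose by 1.11 ± 0.10 with LPS alone and stood at −0.20 on the log2 scale with both, a difference of −1.32 (SE 0.14, edgeR's adjusted p = 0.00164). In CPM MT1X stood at 15, 22.0 and 16.2 CPM in Ctrl and 41.9, 37.7 and 35.5 CPM in LPS, and at 30.0, 25.9 and 30.5 CPM in Sema and 25.1, 26.5 and 24.1 CPM in SemaLPS cultures. Without the replicate block the interaction was called for 1 gene. With single cultures left out in turn it was called for 1 gene (without Ctrl-3) to 38 genes (without LPS-3).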

How the data were processed

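The 2 droplet libraries of 1 pool of 12 hashtagged cultures were read by 3′ gene expression (10x, version 3.1). The authors deposited raw UMI counts of genes and hashtags by barcode, on hg38; the file headers name Cell Ranger 6.0.1 and the submitters' processing notes Cell Ranger 3.0.2 and Seurat 4.1.1, and which gene annotation was used is not stated in these sources. Counts of kept cells were summed per culture over both libraries. Doublets were removed only through the hashtag ratio, which leaves those within a culture.

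Sums were tested with edgeR 4.0.16 (quasi-likelihood, TMM scaling, filterByExpr) over all 12 cultures with condition and replicate number as terms, with Benjamini-Hochberg adjustment over 15383 genes and a threshold of 0.05. The number is a label only, but same-numbered cultures deviated together, with correlations of 0.422 to 0.753 over 5275 genes and 12 of 12 cultures closest to their own number, against −0.529 to 0.221 for other pairs. Shares of cells used cells thinned to 10000 UMIs. Total UMIs per culture and cells are given with the results. The p-values cover these cultures, and PCR and free RNA add error that counts do not show.

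The comparison, the gene lists (41, of which 40 had tested members; a pattern for histone genes matched none), the cell type markers and the tests were chosen with earlier results of these data known. Named genes are, among called genes whose groups lay apart at a mean of at least 20 CPM in the higher group, the 20 largest rises and 20 largest falls, with the 5 rising and 5 falling members of each list with the smallest adjusted p and its 3 most abundant members. A further 33 genes were named for a known role or after their values were seen. Positions are from GENCODE 29 on GRCh38, which held 98.71% of the tested identifiers. The alternatives were no block, the 6 cultures alone, DESeq2 1.42.0 size factors and its Wald test, other count filters, each library alone, stricter and looser cell filters, each culture left out, library size without TMM (added after the data were seen), and limma 3.58.1 on the mean of each cell's CPM with a pseudocount of 1. The fit was tested on simulated data.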

Additional observations from a re-analysis of the deposited data

Results flagged for a closer look

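The 10 genes below are listed because the LPS effect with semagacestat (SemaLPS minus Sema) differed from that without it (LPS minus Ctrl) in edgeR's test of the interaction. Values are the difference of the log2 fold changes with its SE, and no explanation was tested.

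MT1X differed by −1.32 (SE 0.14) and MT2A by −1.55 (SE 0.26); both are metallothioneins, which bind zinc and copper. MT2A rose from a mean of 17.4 CPM in Ctrl to 126 CPM in LPS, and stood at 30.0, 26.3 and 39.0 CPM in Sema and 62.9, 96.8 and 80.5 CPM in SemaLPS. Both had more RNA in each Sema culture than in each Ctrl culture. SOCS6 differed by 0.31 (SE 0.04), SLC31A1, the copper importer, by 0.29 (SE 0.05), and DOP1B by 0.39 (SE 0.06), and all of them fell less with the inhibitor. SLC31A1 went from a mean of 60.6 to 37.4 CPM without it. HLA-DRB1, a class II chain, differed by 0.38 (SE 0.06), at 131, 109 and 109 CPM in LPS and 168, 141 and 124 CPM in SemaLPS. MMD differed by 0.24 (SE 0.04), and PTGDS, a prostaglandin D synthase, by 1.08 (SE 0.16), at 4.03, 4.81 and 8.70 CPM in Sema and 10.1, 7.46 and 12.7 CPM in SemaLPS.

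The remaining pair are genes of fibroblasts that rest on single cultures. COL3A1 differed by 8.83 (SE 1.50) and LUM by 9.61 (SE 1.58). COL3A1 stood at 4.08 CPM in Ctrl-2 and 16.7 CPM in SemaLPS-2, and LUM at 10.8 CPM in Ctrl-2 and 5.85 CPM in SemaLPS-2, whereas both were under 0.5 CPM in the other 10 cultures.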

How the results depend on the processing

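The count of 10009 genes changed by LPS lay within 1.5 times of that value under every alternative but the filter at 5% mitochondrial UMIs, which left 125 Ctrl and LPS cells and called 607 of 6279 genes, 456 of them at least 2-fold. In the fit without the replicate block 9107 genes were called (4648 rose, 4459 fell). The 2223 genes called at 2-fold became 967 with a filter of 5 CPM in 3 cultures, which tests fewer genes, and 1204 with limma on the mean of each cell's CPM; for limma the cause was not tested. Leaving out single cultures gave 9228 to 10082 genes called and 2226 to 2345 at 2-fold. The 10 genes of the interaction became 1 without the replicate block, 299 without a filter on low counts, 5 with that of 5 CPM, 4 in library 1, 5 in library 2, 1 with a hashtag ratio of 10, 2 at 20% and 0 at 5% mitochondrial UMIs (390 with an unadjusted p under 0.05), 28 with DESeq2's Wald test and 17 with limma, and 1 to 38 with single cultures left out; the cause was not tested.

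Of 212 genes named for the comparison of LPS with Ctrl, 206 passed the test, and 201 of those kept direction and call under every alternative other than 5% mitochondrial UMIs; the others were ISG15, IFI6, IL10, MKI67 and SPP1. At 5% the log2 fold change turned to 0.013 in CX3CR1, −0.075 in CXCL16, −0.28 in DUSP5, −0.16 in FTL, −0.060 in HLA-B, 0.76 in MAPKAPK2, 0.0017 in OTULIN, −0.033 in AIF1, −0.44 in APOE, −1.36 in LYZ and −1.02 in IFITM3. With single cultures left out, IFITM3 ranged from −0.094 (without LPS-3) to 0.56, LYZ from −0.044 (without LPS-2) to 0.13 and AIF1 from −0.0024 (without Ctrl-2) to 0.019. AIF1 was at −0.041 with the filter of 5 CPM, −0.0023 in library 1, −0.18 with limma and −0.19 at library size alone, LYZ at −0.0034 with at most 20% mitochondrial UMIs, −0.13 with limma and −0.13 at library size alone, and APOE at −0.011 with the filter, −0.16 with limma and −0.16 at library size alone. APOE passed as higher in library 2 alone (log2 fold change 0.055), with at most 20% mitochondrial UMIs (0.078), without Ctrl-2 (0.065) and without LPS-2 (0.062). Depth limits the scarce transcripts, such as CCL17, which is at least 15.7-fold higher in LPS cultures against 3 counts over the Ctrl group.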
